A study of Mus musculus with 6 samples.

Results

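The regions described here are the promoter regions at which Lsd1 peaks were called in each of 3 ChIP-seq libraries of C2C12 cells. They were selected on the measured peaks themselves. All called peaks of the 3 libraries were pooled, intervals that overlapped by 1 bp or more were merged, and a merged region was kept when it held a peak of every library and its centre lay within 2000 bp of a transcription start site (TSS). Of 56729 merged regions, 5339 (9.41%) met this rule, and they are called shared promoter regions below. They were assigned to 5147 genes, each by the TSS nearest to the region's centre, which is 19.7% of the 26180 genes with a curated RefSeq TSS. Exactly 1 shared region fell to 4966 of these genes, 172 genes had 2, and the remaining genes had more.

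C2C12 is a mouse myoblast line that forms myotubes in low serum and can be driven towards fat cells by an adipogenic cocktail. Wild-type C2C12 cells had been differentiated for 1 day in myogenic medium, which contains horse serum, or for 1 day in adipogenic medium, which contains isobutylmethylxanthine, indomethacin, dexamethasone, insulin, T3 and rosiglitazone. LSD1(OE) cells, kept for 1 day in adipogenic medium, are a stable C2C12 line with a lentiviral Flag-tagged LSD1 construct behind a tetracycline-dependent promoter, selected with G418 and induced with doxycycline. The wild-type samples carry no mention of doxycycline, so the level of LSD1, the selected line and the drug cannot be told apart. Each condition had 1 library precipitated with an antibody against the C-terminus of Lsd1 and 1 input library, so that every difference between conditions is a difference between single libraries and has no replicate error. RNA was not analysed here, and the labelled cell type was looked at only through promoter occupancy.

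Lsd1, encoded by Kdm1a, is a histone demethylase that removes methyl groups from mono- and dimethylated lysine 4 of histone H3. It works mostly within the CoREST complex, where it is paired with the histone deacetylases Hdac1 and Hdac2, and it is brought to chromatin by repressors such as Gfi1, Snai1 and Rest. It is found at many active promoters as well as at enhancers, so that a peak at a promoter does not tell whether the gene is on or off. In muscle precursors Lsd1 is known for its part in the choice between muscle and brown fat.

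Sequences upstream of 8 of these genes are given first, because base composition set the shared promoter regions apart from distal Lsd1 regions, as described further on. Each is the 250 bases that end 1 base before the TSS, 5′ to 3′ on the strand of the gene, read from the RefSeq assembly GRCm38.p6, which is the mm10 build of the peak files. Capitals mark the GC box GGGCGGG, the site of the SP and KLF factor family, or its reverse complement. Zbed4 (chr15:88751461-88751710 (+ strand)), Vamp1 (chr6:125215331-125215580 (+ strand)), Klf10 (chr15:38299901-38300150 (- strand)) and Plec (chr15:76200608-76200857 (- strand)) belong to the 12 regions with the highest density in all 3 libraries. Mef2d (chr3:88142122-88142371 (+ strand)) and Glis1 (chr4:107434469-107434718 (+ strand)) are the genes with a shared region among the 12 whose Lsd1 occupancy the study names. Fosl1 (chr19:5447448-5447697 (+ strand)) and Ier2 (chr8:84662853-84663102 (- strand)) are from a list of AP-1 and immediate early genes. All 8 stretches lay wholly inside the gene's shared region and overlapped no annotated exon of a curated transcript.
Zbed4: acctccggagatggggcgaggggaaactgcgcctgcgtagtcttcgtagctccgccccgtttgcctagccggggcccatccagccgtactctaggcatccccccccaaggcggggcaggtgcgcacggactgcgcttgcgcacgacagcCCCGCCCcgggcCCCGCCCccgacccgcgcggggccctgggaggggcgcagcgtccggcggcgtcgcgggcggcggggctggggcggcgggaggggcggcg
Vamp1: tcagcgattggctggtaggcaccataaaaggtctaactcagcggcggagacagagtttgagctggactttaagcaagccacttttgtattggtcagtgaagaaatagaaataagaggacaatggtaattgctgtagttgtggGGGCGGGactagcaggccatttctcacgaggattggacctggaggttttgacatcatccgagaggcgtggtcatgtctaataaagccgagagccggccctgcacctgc
Klf10: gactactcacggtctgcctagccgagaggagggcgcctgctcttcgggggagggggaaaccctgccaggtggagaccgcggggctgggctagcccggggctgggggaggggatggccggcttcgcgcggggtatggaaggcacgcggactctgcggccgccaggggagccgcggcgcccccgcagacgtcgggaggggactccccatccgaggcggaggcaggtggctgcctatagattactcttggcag
Plec: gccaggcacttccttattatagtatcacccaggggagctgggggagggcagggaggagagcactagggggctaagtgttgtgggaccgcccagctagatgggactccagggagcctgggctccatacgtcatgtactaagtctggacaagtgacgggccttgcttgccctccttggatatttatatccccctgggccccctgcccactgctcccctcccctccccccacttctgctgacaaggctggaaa
Mef2d: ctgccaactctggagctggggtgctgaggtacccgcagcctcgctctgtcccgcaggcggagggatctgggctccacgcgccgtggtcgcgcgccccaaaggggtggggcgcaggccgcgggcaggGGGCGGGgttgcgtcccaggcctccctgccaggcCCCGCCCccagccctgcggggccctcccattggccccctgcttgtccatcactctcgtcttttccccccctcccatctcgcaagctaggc
Glis1: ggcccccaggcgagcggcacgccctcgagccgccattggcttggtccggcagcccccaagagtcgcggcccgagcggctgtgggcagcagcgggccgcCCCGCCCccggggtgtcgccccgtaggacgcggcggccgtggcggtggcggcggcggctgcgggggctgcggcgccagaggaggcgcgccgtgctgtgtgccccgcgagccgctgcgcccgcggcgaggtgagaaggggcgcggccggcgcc
Fosl1: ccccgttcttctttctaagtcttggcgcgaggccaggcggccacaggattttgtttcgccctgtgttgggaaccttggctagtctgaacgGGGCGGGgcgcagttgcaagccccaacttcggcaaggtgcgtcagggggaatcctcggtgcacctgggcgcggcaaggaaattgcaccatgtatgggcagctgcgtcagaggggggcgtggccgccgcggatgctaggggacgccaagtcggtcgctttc
Ier2: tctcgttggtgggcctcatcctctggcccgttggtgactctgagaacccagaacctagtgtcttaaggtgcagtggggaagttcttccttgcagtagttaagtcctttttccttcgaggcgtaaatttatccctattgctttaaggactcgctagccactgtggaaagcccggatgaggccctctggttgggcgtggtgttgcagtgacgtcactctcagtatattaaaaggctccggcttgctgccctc
The Zbed4 and Mef2d stretches held 2 GC boxes each, and Vamp1, Glis1 and Fosl1 held 1. Klf10, Plec and Ier2 held none in this window. The share of G and C ranged from 50.4% at Vamp1 to 82.4% at Glis1. CpG dinucleotides numbered 41 at Glis1, 35 at Zbed4 and 23 at Klf10, but 3 at Plec. The Plec stretch held TTTATA, the reverse complement of the TATA box letters TATAAA.

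Where the peaks lay was described next. Of the 5339 regions, 95.9% contained a TSS (95% Wilson interval 95.3 to 96.4%, which like all intervals here covers counting error only), and the centre was within 500 bp of the TSS in 78.6%. Among the other 8023 promoter regions 67.1% contained a TSS and 66.1% were centred within 500 bp, but those regions were called in fewer libraries and a shorter region contains a TSS less easily. Shared regions had a median length of 1922 bp and ranged from 767 to 29809 bp. The centre lay downstream of the TSS in 60.8%, while the summit of the strongest peak lay downstream in 52.0% of regions in the myogenic, 48.3% in the adipogenic and 51.5% in the LSD1(OE) library. The median summit was 16 bp downstream, 14 bp upstream (-14) and 10 bp downstream of the TSS, respectively. The rule keeps regions centred near a TSS, so a median near the start site is in part set by it. Single summits were spread around it, with quartiles at -174 and 168.5 bp in the myogenic library. The centre lay downstream in 57.1% of the other promoter regions and 57.7% of distal regions bound in all 3 libraries, so this lean is not particular to the shared ones.

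**Figure D1:**
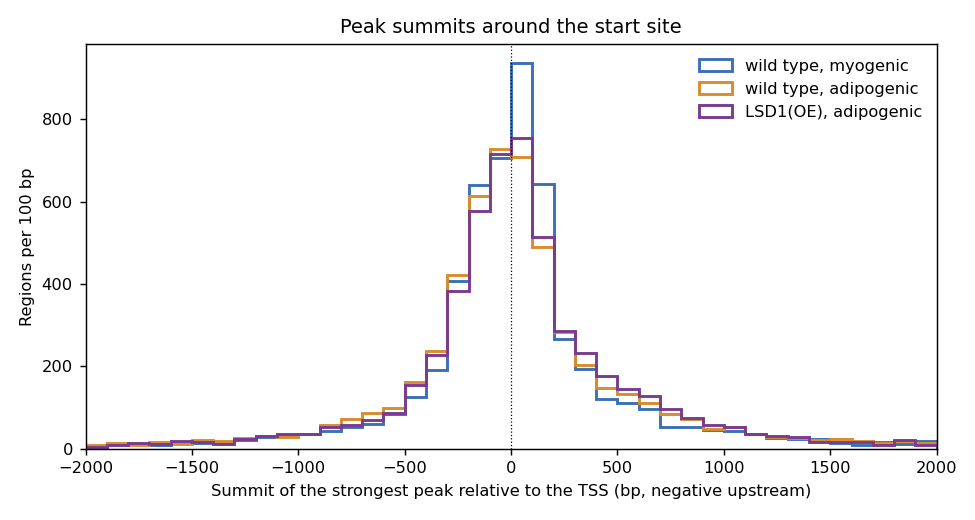
Number of shared promoter regions per 100 bp (vertical axis) by the distance of the strongest summit from the TSS in bp (horizontal axis, negative upstream), 1 line per library. In all 3 libraries the lines peak at the start site, with 79.2% (myogenic), 74.9% (adipogenic) and 75.3% (LSD1(OE)) of summits within 500 bp.

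Peaks were merged only where they overlapped, so the rule itself keeps the summits of the 3 libraries near each other. The median gap between summits was 147 bp for the myogenic and adipogenic libraries, 147 bp for the myogenic and LSD1(OE) libraries and 154 bp for the adipogenic and LSD1(OE) libraries. In the other promoter regions, where both libraries of a pair had a peak, the median gaps were 149, 153 and 151 bp in the same order. All 3 summits fell within 500 bp of each other in 68.5% of shared promoter regions and in 65.0% of the 6325 distal regions bound in all 3 libraries. Within 150 bp they fell in 29.2% of shared promoter regions and 27.4% of these distal regions. Peaks were not split much, with a single peak in 90.2%, 91.8% and 89.3% of regions in the myogenic, adipogenic and LSD1(OE) library.

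Being a promoter went together with being called in every library. Of the 13362 merged promoter regions 40.0% held peaks of all 3 libraries, against 14.6% of the 43367 distal regions. Turned around, 45.8% of regions called in all 3 libraries were promoters, compared with 36.2% of those in the myogenic and LSD1(OE) libraries, 26.3% of those in both wild-type libraries and 16.7% of those in the myogenic library alone. Regions called without the myogenic library were promoters in 8.30% (adipogenic alone), 9.22% (adipogenic and LSD1(OE)) and 9.81% (LSD1(OE) alone). The weakest regions are those most easily missed in 1 list, and the part of peak strength in these shares was not tested.

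The lists of peaks were of different length, which sets how large a part the shared promoters take in each. The myogenic list held 43426 peaks, the adipogenic list 18893 and the LSD1(OE) list 33533, from 46155625, 63915769 and 55193310 ChIP tags after removal of duplicates. Shared promoter regions took up 5951, 5840 and 5976 of these peaks, or 13.7%, 30.9% and 17.8%. They held 25.8%, 34.9% and 26.4% of the tags that fell into peaks. All peaks together held 7.12% of the myogenic, 3.20% of the adipogenic and 5.28% of the LSD1(OE) ChIP tags, so that the adipogenic library was the deepest and had the smallest share of its tags in peaks.

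Tag density was given as tags per kb of called peak and per 1000000 filtered ChIP tags. The median over shared promoter regions was 1.69 in the myogenic, 1.22 in the adipogenic and 1.36 in the LSD1(OE) library, with 90% of regions between 1.21 and 2.37, 0.99 and 1.68, and 1.03 and 1.96. The lowest values are set by the calling threshold, at 0.97, 0.88 and 0.89. The median region held 135, 107 and 115 tags. On this scale the density was lower in the adipogenic than in the myogenic library at 95.8% of regions (median log2 ratio -0.45), but scaled to the tags in peaks the order turned, with a median of 0.71. LSD1(OE) exceeded wild type in adipogenic medium at 73.4% of regions (median log2 ratio 0.15), and this order turned as well, to -0.57. The direction of the overall difference between libraries therefore rests on the scaling, and both ratios share the adipogenic library.

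What does not depend on the scaling is how regions stood relative to each other. The median log2 ratio of adipogenic to myogenic density was -0.45 at shared promoters and -0.24 at the distal regions bound in all 3 libraries, so that the promoter median minus the distal median was -0.20. For LSD1(OE) over adipogenic the medians were 0.15 and 0.12, a difference of 0.03. The myogenic library had the highest of the 3 densities at 84.0% of shared promoters and 62.1% of distal regions on the scale of filtered tags, whereas scaled to tags in peaks the adipogenic density exceeded the myogenic one at 99.9% of shared promoters. These densities belong to the same peaks that chose the regions, and the difference between promoters and distal regions was not tested. Across the 5339 regions the densities of 2 libraries had a Spearman correlation of 0.52 (myogenic and adipogenic), 0.49 (myogenic and LSD1(OE)) and 0.55 (adipogenic and LSD1(OE)). The points share the position, base composition and, in part, the called length.

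**Figure D2:**
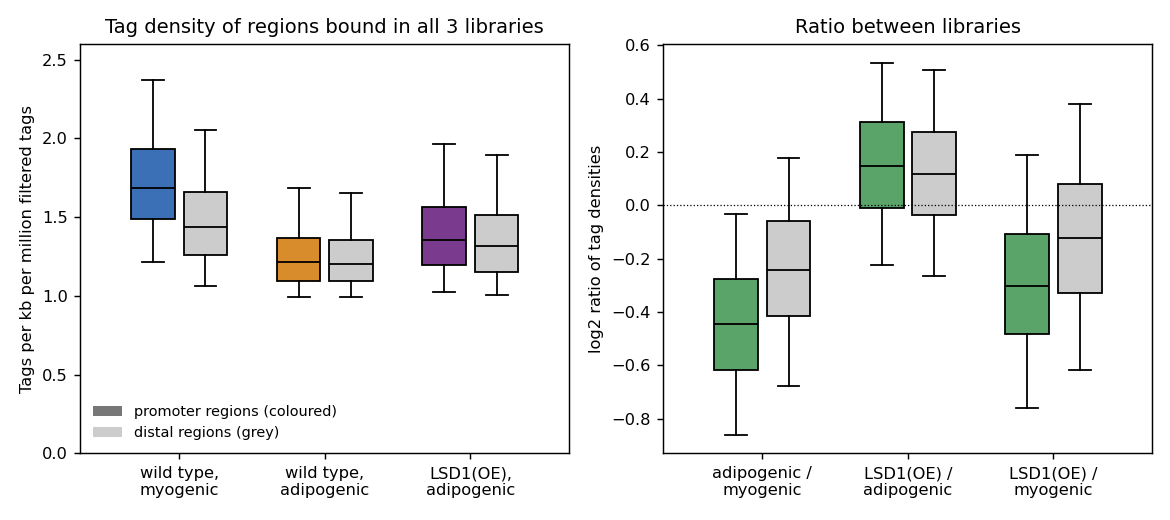
Left, tag density (tags per kb of called peak per 1000000 filtered ChIP tags) of the 5339 shared promoter regions (coloured) and 6325 distal regions bound in all 3 libraries (grey) in each library. Right, log2 ratio of the densities between libraries (promoters green, distal grey). Boxes span the quartiles with the median as a line and whiskers the 5th to 95th percentile. In the left panel the promoter and distal medians differ in the myogenic library (1.69 against 1.44) more than in the adipogenic (1.22 and 1.21) or LSD1(OE) library (1.36 and 1.32).

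The regions with the highest density in all 3 libraries lay at genes of varied function. They were taken by the lowest of a region's 3 percentile ranks. The first was a region on chromosome 3 that covers the start of 1700040D17Rik and of Tdrkh, a piRNA pathway gene, with 560, 520 and 716 tags in the myogenic, adipogenic and LSD1(OE) library and densities of 4.88, 3.90 and 4.80. Colgalt1, a collagen galactosyltransferase, had 364, 247 and 279 tags over about the same called length (1350, 1317 and 1430 bp), and densities of 5.84, 2.93 and 3.53. Its myogenic density was the highest of all shared promoters.

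Klf10, a TGF-beta inducible Krüppel-like factor, had 853, 818 and 1059 tags in a region of 6917 bp, with densities of 3.52, 2.74 and 2.80. Clcn3, a chloride/proton exchanger, had 251, 321 and 370 tags and densities of 2.99, 2.91 and 3.23. Relative to the median of all shared promoters the adipogenic to myogenic log2 ratio was 0.08 at Klf10 and -0.55 at Colgalt1. The gene Clcn3 had a second shared region at another start, with 68, 51 and 74 tags. Zbed4, a zinc finger gene, stood at 2.86, 2.21 and 3.39, and Plec, the cytolinker plectin, held 1934, 1754 and 1870 tags in 15607 bp of chromosome 15 at densities of 2.79, 2.06 and 2.33. Vamp1, Wbp2, Pcyox1l, Cbln1, Zbtb22 and Pth2 completed the 12. At Pth2 the upstream 250 bases lay outside the region, whose centre was 1206.5 bp downstream of the start.

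Which shared promoters moved most between the wild-type libraries was ranked among the 5283 regions with at least 100 tags in the pair. Their log2 ratios are given relative to the median of all shared promoters, which removes the scaling, with exact counting intervals. They were picked as extremes and carry no test. Fos, the immediate early AP-1 gene, had 38 tags in 764 bp in the myogenic, 116 in 1242 bp in the adipogenic and 103 in 1419 bp in the LSD1(OE) library, and its ratio of adipogenic to myogenic density was 0.89 above the median (0.35 to 1.46). That region is centred 1542 bp upstream of the Fos TSS (-1542). The other shared region of Fos, centred 628 bp downstream, had 146, 90 and 168 tags and densities of 1.94, 1.41 and 1.45. Pvalb, the calcium buffer parvalbumin, had 153, 208 and 266 tags and stood 0.94 above (0.63 to 1.25). Akap9, a scaffold for protein kinase A, had 99, 121 and 99 tags and the highest ratio, at 0.98 (0.58 to 1.38). The other 2 of the highest 5, A930005H10Rik and 4930447J18Rik, rested on 28 myogenic tags each.

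At the other end were Pabpc1, Mir5131, Notch2, Abi2 and Brd2. Pabpc1, the cytoplasmic poly(A)-binding protein, had 223, 129 and 167 tags in the myogenic, adipogenic and LSD1(OE) library, and its ratio of adipogenic to myogenic density was -0.78 relative to the median (-1.10 to -0.46). The receptor gene Notch2 had 202, 66 and 135 tags, with -0.77 (-1.19 to -0.36), and Brd2, a BET family reader of acetylated histones, 206, 89 and 139 tags, with -0.75 (-1.12 to -0.38). At each of these 3 genes the LSD1(OE) density lay between those of the wild-type libraries on the scale of filtered tags, an order that the scaling can turn.

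The same was done for LSD1(OE) over wild type in adipogenic medium, among 5242 regions. Inhbb, the beta-B subunit of inhibins and activins, had 86 in 1578 bp in the myogenic, 97 in 1170 bp in the adipogenic and 537 in 3751 bp in the LSD1(OE) library, with densities of 1.18, 1.30 and 2.59, and its log2 ratio was 0.85 above the median (0.54 to 1.18). Its LSD1(OE) peaks thus stood out in density and in called length. Scamp2, a secretory carrier membrane protein, had 101, 86 and 216 tags and stood 0.89 above (0.52 to 1.27), and Klc1, a kinesin light chain, 140, 69 and 295 tags and 0.88 above (0.50 to 1.28). Ppa2 and BC037704 were the other 2.

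Among the lowest ratios were those at Dcaf15, G430095P16Rik, Mertk and C230037L18Rik. Dcaf15, a substrate receptor of a ubiquitin ligase, had 117, 136 and 55 tags and stood at -0.87 relative to the median (-1.35 to -0.41). Mertk, a receptor for apoptotic cells, had 137, 215 and 35 tags and stood at -0.80 (-1.36 to -0.28). The LSD1(OE) counts there were the lowest of the 3 libraries and close to the lower end of what was called, 30 tags at any peak of that list.

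The 5 longest shared regions included 2 over histone gene clusters. The longest, at H3c6 on chromosome 13, spanned 29809 bp and covered the starts of 7 further histone genes, namely H4c6, H1f3, H2ac8, H2bc8, H2bc7, H2ac7 and H3c4. It held 2902, 2136 and 3348 tags in the myogenic, adipogenic and LSD1(OE) library. The region at H2ac4 spanned 15524 bp over 4 further histone genes, with 1249, 1184 and 1581 tags. At Junb a region of 13665 bp held 1465, 1211 and 575 tags and its called length was 13060, 11108 and 7978 bp. The LSD1(OE) to adipogenic density ratio at Junb was -0.53 relative to the median (-0.68 to -0.39), with densities of 2.43, 1.71 and 1.31. Mir1191b and Plec were the other 2 of the 5 longest. Histone genes have near-identical copies, whose reads the aligner may not place uniquely, so the counts there are uncertain.

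Genes of known function were then counted in lists. The share of each list that owned a shared promoter region stands beside 19.7% of all genes with a curated TSS. Of the 11335 genes with a promoter region in at least 1 library, 45.4% owned a shared one, which is the second number against which to read a list. The lists were chosen with earlier results of these data known, and no set test was run.

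AP-1 and immediate early genes had the highest share of all genes in a list. Many of them code for transcription factors switched on soon after a stimulus. Of 19 genes 15 owned a shared promoter region (78.9%, interval 56.7 to 91.5%), or 83.3% of the 18 with any promoter region. By that second share histone genes (91.7%) and repressors that bring Lsd1 to DNA (85.7%) stood higher. The 15 were Atf3, Egr1, Egr2, Fos, Fosb, Fosl1, Fosl2, Ier2, Ier3, Jun, Junb, Jund, Klf2, Klf4 and Klf10. Fosl1, an AP-1 subunit, had 368, 493 and 452 tags in the myogenic, adipogenic and LSD1(OE) library, and Fosl2 had 512, 272 and 397. Ier2, a nuclear immediate early protein, had 610, 669 and 213 tags, with called lengths of 6212, 6131 and 2631 bp. As at Junb, the LSD1(OE) peaks at Ier2 were the fewest in tags and the shortest. Egr3 and Ier5 had a promoter region in the myogenic and LSD1(OE) libraries only, and Myc had none. The median density over the 15 genes was 1.94, 1.41 and 1.49, against 1.70, 1.22 and 1.36 over all genes with a shared region.

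In the Notch pathway, which holds muscle stem cells back from differentiation, 13 of 24 genes owned a shared promoter region (54.2%, interval 35.1 to 72.1%). The 13 were 61.9% of the 21 genes with any promoter region. Among the ligands Jag1 had 455, 415 and 498 tags in the myogenic, adipogenic and LSD1(OE) library, and Jag2 and Dll4 were also shared. Of the receptors, Notch1 and Notch2 were shared, whereas Notch3 and Notch4 were not. Rbpj, the DNA-binding effector of all Notch receptors, had 277, 264 and 246 tags. Of its targets Hes1 had 467, 307 and 587 tags, and Hey1 and Hey2 were shared too. Hes6, which counteracts Hes1, had 240, 405 and 518 tags, and its adipogenic to myogenic density ratio stood 0.62 above the median of all shared promoters (0.38 to 0.85). The coactivators Maml1, Maml2 and Maml3 owned no shared region. The glycosyltransferases Lfng and Mfng, which tune receptor choice, and Numbl completed the 13.

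TGF-beta and BMP signalling, which restrains myogenesis and feeds brown fat commitment, had 14 of 26 genes with a shared promoter region (53.8%, interval 35.5 to 71.2%). Among them were the receptors Tgfbr1, Tgfbr2, Acvr1, Acvr2a, Acvr2b and Bmpr1a, the signal transducers Smad1, Smad3 and Smad5, the inhibitors Smad6, Skil, Tgif1 and Smurf1, and the ligand Tgfb2. The 14 were 63.6% of the 22 genes with any promoter region. Smad3 had 190, 113 and 168 tags and Smad1 112, 149 and 82. The ligands Bmp2 and Bmp7 and the common partner Smad4 had no promoter region of their own in any library. The TSS of Smad7 lay inside a shared region whose centre was nearer to another gene.

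Of 15 genes that encode Lsd1 and its CoREST partners, 8 owned a shared promoter region (53.3%, interval 30.1 to 75.2%). These were Ctbp1, Gse1, Hdac2, Hmg20b, Phf21a, Rcor2, Rreb1 and Zmym2. The 8 made up 66.7% of the 12 genes with any promoter region. Phf21a, the reader of unmethylated lysine 4 in the complex, had 232, 322 and 449 tags in the myogenic, adipogenic and LSD1(OE) library, and densities of 2.54, 2.91 and 3.41 in the stronger of its 2 shared regions, and 77, 75 and 84 tags in the other. Gse1 had 613, 752 and 891 tags in the stronger of 2 regions and 177, 388 and 446 in the other, and Rcor2, a CoREST paralogue, 282, 238 and 283. The stronger regions of Phf21a and Gse1 had their highest density in LSD1(OE) cells on the scale of filtered tags, an order that scaling to the tags in peaks can turn. The adipogenic to myogenic ratio of Phf21a stood 0.64 above the median of all shared promoters (0.39 to 0.89). Kdm1a itself was not among them. Its promoter region, with 123 tags and a score of 310, was called in the myogenic library only, as was that of Rcor1, with 152 tags. The deacetylase gene Hdac1 had a region in the myogenic and LSD1(OE) libraries.

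Of 12 repressors that can recruit Lsd1, 6 owned a shared promoter region, which were Bcl6, Gfi1, Prdm1, Rest, Snai2 and Zeb2. Snai2, a repressor of the Snail family, had 132, 277 and 249 tags, and Prdm1 142, 241 and 206. Gfi1 had 112, 92 and 160 tags. Of the other 6, Zeb1 had a promoter region in the myogenic and LSD1(OE) libraries and the rest had none. Of the 11 genes of NuRD, a second deacetylase complex that contains Lsd1 in some cells, 3 did (Gatad2a, Gatad2b and Mbd3). These 3 were 30% of the 10 with any promoter region.

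The muscle genes split by function. Of 22 myogenic transcription factors 10 owned a shared promoter region (45.5%, interval 26.9 to 65.3%), but the factors that define the lineage were not among them except Myf6. The 10 were Eya1, Eya3, Id1, Id2, Id3, Mef2a, Mef2d, Myf6, Tcf3 and Tead4. They made up 58.8% of the 17 factors with any promoter region. The Id proteins block the E-protein partners of MyoD, and Id1 had 325, 239 and 356 tags, Id2 254, 297 and 454, and Id3 278, 205 and 180 in the myogenic, adipogenic and LSD1(OE) library. Tead4, the partner of Yap, had 262, 256 and 206 tags, and Myf6, chosen after its values were seen, had 38, 111 and 114. The libraries differ in depth, so these tags are not on one scale. Relative to the median of all shared promoters the adipogenic to myogenic log2 density ratio was 0.39 at Id2 (0.15 to 0.64) and -0.11 at Id3 (-0.38 to 0.16). Myod1 had a promoter region in the myogenic library only, Myog in the myogenic and LSD1(OE) libraries, and Myf5, Pax3, Pax7 and Mef2c in none. The start of Srf lay inside a shared region that was assigned to Mir6976.

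Of 39 sarcomere and contractile genes 5 owned a shared promoter region (12.8%, interval 5.60 to 26.7%), namely Acta2, Actn3, Tpm1, Tpm2 and Tpm4. The tropomyosins and smooth muscle actin Acta2 are also expressed outside striated muscle. Tpm2 had 327, 140 and 278 tags and Actn3 298, 318 and 249. Of the 39 genes 24 had a promoter region in some library, so 20.8% of these were shared, against 45.4% of all genes with one. Acta1, Mb, Myh1, Myh3, Myl1, Ryr1, Tnnc1, Tnnt3 and Ttn, among others, had regions in the myogenic library only. The 8 marker genes of myoblasts and myotubes (Myod1, Myf5, Myog, Des, Acta1, Ckm, Myh3 and Cdh15) owned 0 shared promoter regions, although 6 had a promoter region in some library. With so few genes the upper Wilson limit was 32.4%, above the 19.7% of all genes.

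Among 29 adipogenic regulators and adipocyte genes 11 owned a shared promoter region (37.9%, interval 22.7 to 56.0%). The 11 made up 57.9% of the 19 with any promoter region. Cebpb, which starts the adipogenic cascade together with Cebpd, had 359, 342 and 406 tags in the myogenic, adipogenic and LSD1(OE) library, and Cebpd had 224, 217 and 137. Klf5 had 245, 251 and 287 tags. The adipogenic to myogenic log2 density ratio was -0.13 at Cebpb, -0.07 at Cebpd and 0.07 at Klf5 relative to the median, each with a counting interval that included 0. The lipid enzymes Scd1 (174, 296 and 276 tags) and Fasn were shared as well, and so were Klf4, Klf9, Ebf1, Zfp423, Zfp516 and Glis1. Pparg and Cebpa, the factors of terminal differentiation, had promoter regions in the myogenic and LSD1(OE) libraries but not in the adipogenic one. The adipocyte markers Fabp4, Adipoq, Plin1 and Ucp1 had none, and 0 of the 6 adipocyte markers owned a shared region. Here too the upper Wilson limit, at 39.0%, was above the 19.7% of all genes. The 8 markers of blood, liver, brain, endothelial and epithelial cells (Ptprc, Cd3e, Alb, Gfap, Rbfox3, Cdh5, Pecam1 and Epcam) had no promoter region in any library.

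Of the 12 genes whose Lsd1 occupancy the study names, Mef2d and Glis1 owned a shared promoter region. Mef2d, a MADS box factor of muscle differentiation, had a region of 7128 bp on chromosome 3 (chr3:88139983-88147110) with 502, 271 and 403 tags and densities of 1.73, 1.30 and 1.29 in the myogenic, adipogenic and LSD1(OE) library. These densities ranked at percentile 55.3, 65.8 and 39.8 of shared promoters, near the middle. The study states that Lsd1 was absent from muscle genes in adipogenic medium and found at Mef2d there upon overexpression. In the wild-type adipogenic peak list used here, however, a peak with a score of 310 lay in this Mef2d region. The merged region is centred 1174.5 bp downstream of the TSS. Where the peak lay relative to the interval that the study shows was not compared. Glis1, a Krüppel-like zinc finger factor, had a region of 1708 bp on chromosome 4 (chr4:107433867-107435574), centred on the TSS, with 61 (46.7 to 78.4), 73 (57.2 to 91.8) and 152 (129 to 178) tags, with exact Poisson intervals. Its densities of 1.29, 1.19 and 1.61 ranked at percentile 8.9, 44.1 and 79.2. Glis1 was thus among the weaker shared promoters in the myogenic library and among the stronger ones in LSD1(OE) cells. Relative to the median its LSD1(OE) to adipogenic ratio was 0.29, with a counting interval from -0.12 to 0.72.

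The study defined inversely regulated genes (IRGs) as genes that change in opposite directions on LSD1 overexpression and Lsd1 knockdown. It took them from genes whose RNA also differed between myogenic and adipogenic medium in wild-type cells. Of the 348 genes matched, 162 owned a shared promoter region (46.6%, interval 41.4 to 51.8%), or 61.1% of the 265 with any promoter region. IRGs that rise under LSD1(OE) owned one in 122 of 275 cases (44.4%, interval 38.6 to 50.3%) and those that fall in 40 of 73 (54.8%, interval 43.4 to 65.7%). The study chose them by RNA from the same cell line. At the rising IRG Ankrd10 there were 470, 427 and 485 tags in the myogenic, adipogenic and LSD1(OE) library, and at Setd7, a lysine methyltransferase, the densities were 2.56, 1.66 and 2.38. At the falling IRGs Hmga2, a chromatin protein of undifferentiated cells, and Mt2, a metallothionein, there were 478, 318 and 385, and 369, 527 and 468 tags. Both directions thus included strongly occupied promoters. The median log2 ratio of adipogenic to myogenic density was -0.41 over rising and -0.31 over falling IRGs, and -0.45 over all genes with a shared region.

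Lists of general cell functions had shares from 42.9% down to 15.9%. Of the cell cycle genes 13 of 34 owned a shared promoter region (38.2%), with both drivers of the cycle (Ccnd1, Ccne2, Cdk4, E2f1 and E2f3 among them) and inhibitors (such as Cdkn1a, with 313, 226 and 264 tags, Cdkn1b and Rb1). Circadian clock genes had 9 of 21 (42.9%), namely Bhlhe40, Bhlhe41, Cry1, Nfil3, Nr1d1, Nr1d2, Per1, Per2 and Tef. Arntl, Cry2 and Per3 owned none, and the start of Clock lay inside a shared region of another gene. Per2 had 185, 406 and 495 tags. Shares of 33.9% were found for 59 histone lysine methylation enzymes and 32.4% for 68 splicing factors. Of the genes with any promoter region, a shared one was owned by 50% in the cell cycle list and 45% in the clock list. That share was 42.6% for the methylation enzymes and 40% for the splicing factors. All of these lie near or below the 45.4% of all such genes. Translation factors (26.8% of 71), the RNA polymerase II machinery (22.6% of 84), mitochondrial ribosomal proteins (20.5% of 78), Zfp genes (20.3% of 395), the proteasome (17.9% of 39), oxidative phosphorylation (16.3% of 86) and cytosolic ribosomal proteins (15.9% of 82) had intervals that included 19.7%. Of the genes with any promoter region in these 7 lists, between 19.7% (cytosolic ribosomal proteins) and 38.8% (translation factors) owned a shared one, below the 45.4% of all such genes. Of 63 histone genes 22 owned a shared region (34.9%), which were 91.7% of the 24 with any promoter region, and 55 had a TSS inside a shared region. That count depends on giving each region to 1 gene only.

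At the lower end, 0 of 1110 olfactory receptor, 0 of 350 vomeronasal receptor, 0 of 58 clustered protocadherin and 0 of 42 beta defensin genes owned a shared promoter region. The upper Wilson limits were 0.345%, 1.09%, 6.21% and 8.38%. Keratins and keratin-associated proteins had 3 of 105. Hox genes had 9 of 39 (23.1%), all in the HoxA and HoxC clusters, and none of the HoxB or HoxD genes was among them. Hoxc13 had 361, 358 and 426 tags and Hoxa3 261, 246 and 197.

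**Figure D3:**
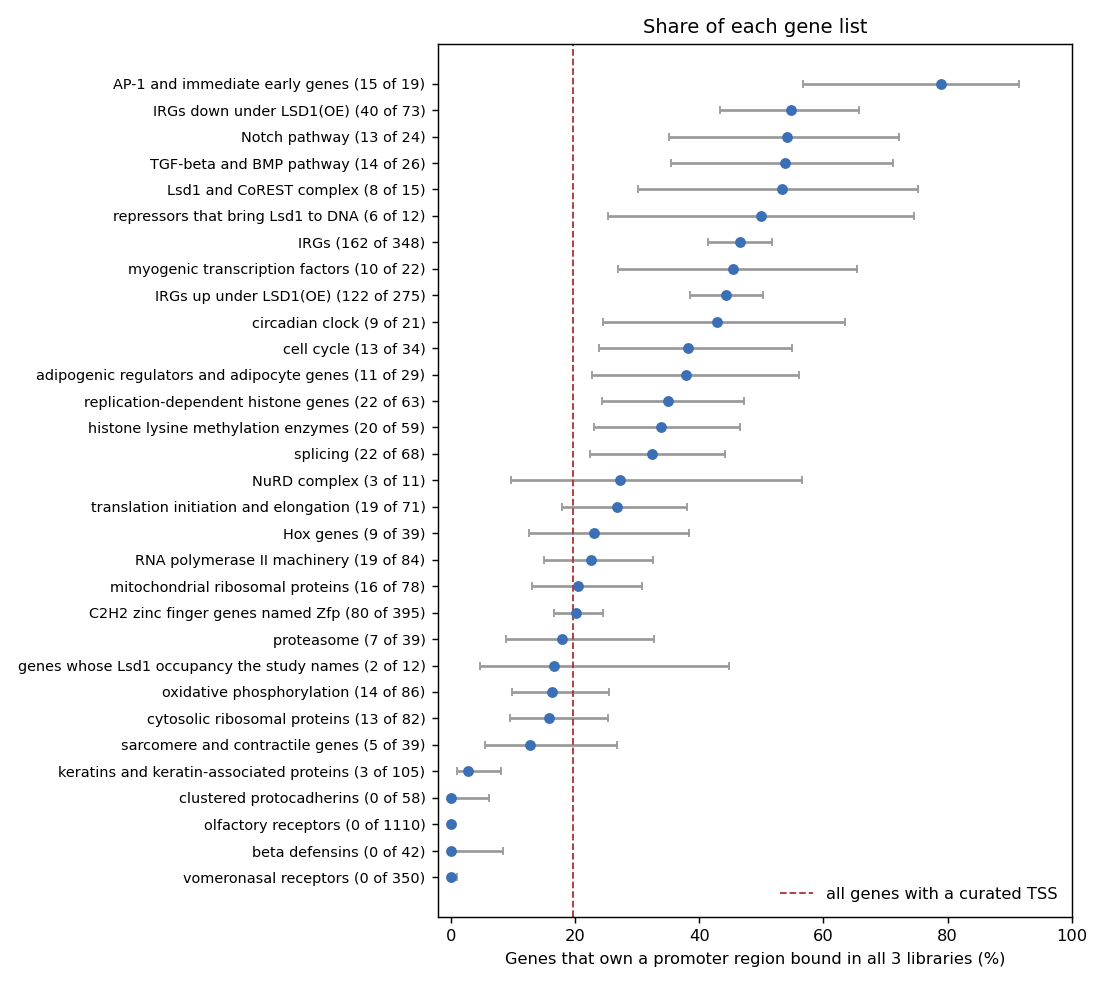
Share of the genes of each list that own a promoter region bound in all 3 libraries (horizontal axis, %), with 95% Wilson intervals as bars and the counts in parentheses. The dashed line is the share of all genes with a curated TSS (19.7%). AP-1 and immediate early genes stand highest at 78.9%, and the receptor, protocadherin and beta defensin families stand at 0.

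Shared promoter regions were unevenly spread over the chromosomes. On chromosome 15, 387 of 963 genes owned one (40.2%, interval 37.1 to 43.3%), followed by chromosomes 10 (28.3%), 8 (25.8%), 11 (25.6%) and 19 (25.5%). The lowest shares were on chromosome 9 (12.4%), chromosome 7 (8.49%) and the X chromosome, where 19 of 1126 genes owned one (1.69%, interval 1.08 to 2.62%). None of the 91 genes on the Y chromosome did, which allows up to 4.05%. Chromosome 7 carries many olfactory and vomeronasal receptor genes, but without these its share was 10.4%, against 20.8% over all chromosomes treated in the same way. The densities followed the same order at both ends, with medians of 1.88, 1.41 and 1.46 on chromosome 15 and 1.29, 1.09 and 1.18 on the X chromosome in the myogenic, adipogenic and LSD1(OE) library. The number of copies of each chromosome in these cells was not measured, and its part in these shares was not tested.

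**Figure D4:**
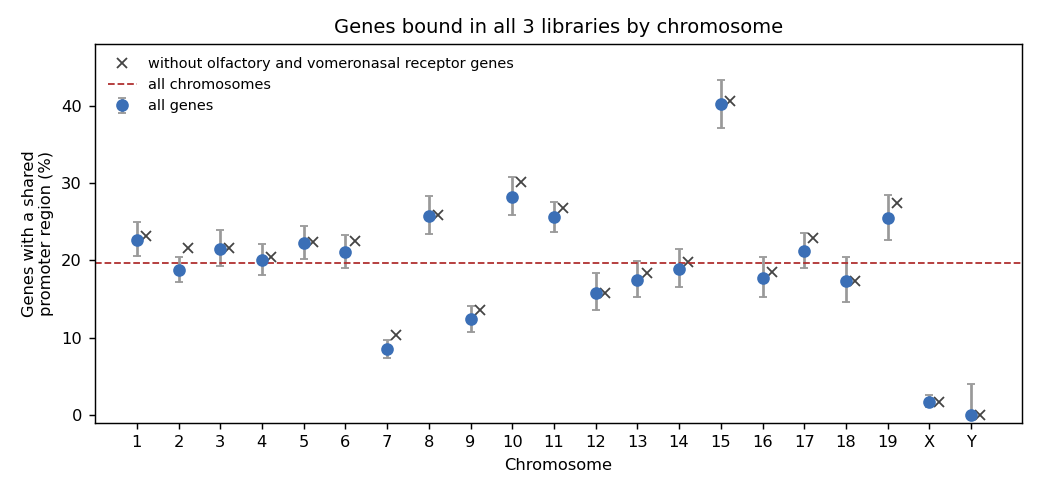
Share of genes that own a promoter region bound in all 3 libraries (vertical axis, %) on each chromosome (horizontal axis), with 95% Wilson intervals. Crosses leave out olfactory and vomeronasal receptor genes, and the dashed line is the share over all chromosomes (19.7%). Chromosome 15 stands highest at 40.2% and the X chromosome is at 1.69%.

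The rule used position and peaks but not the sequence, which was described last. In 1001 bp around the centre, shared promoter regions had a median of 60.8% G and C, against 55.4% in the other promoter regions and 49.5% in distal regions bound in all 3 libraries. The ratio of observed to expected CpG had medians of 0.74, 0.61 and 0.21. It exceeded 0.6, a usual mark of CpG islands, in 74.5% of shared promoters (interval 73.3 to 75.6%), 51.1% of other promoter regions and 4.05% of the distal regions. Promoter regions called in the myogenic and LSD1(OE) but not the adipogenic library resembled the shared ones, with 70.8%, while those of the myogenic library alone had 45.2%. Within the shared promoters the share was 78.3% in the top quartile and 70.4% in the bottom quartile of common density. CpG-rich DNA is also read at other depth in sequencing, and the part of this in the calls was not tested.

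Motifs were searched as exact letters on both strands in 300 bp around the start site, from 250 bases upstream to 50 downstream, for the shared promoters and for all curated TSSs. None of the motifs named here is contained in another. The GC box GGGCGGG was found at 54.8% of shared promoters (interval 53.5 to 56.1%) and at 31.6% of all TSSs. The shared promoters are also richer in G and C, which makes such a match more frequent by itself. The CCAAT box GCCAAT of NF-Y occurred at 20.6% against 15.95% and the ETS motif CCGGAAG at 13.3% against 10.4%, but in the promoters of regions not called in all 3 libraries ETS was higher, at 17.9%. Less frequent than at all TSSs were the TATA box TATAAA (6.27% against 12.3%), the motif AGAACA of the glucocorticoid receptor (9.48% against 17.0%) and the AP-1 motif TGANTCA (5.00% against 7.21%). TATAAA (7.34%) and TGANTCA (5.34%) were also below all TSSs at the promoters of regions not called in all 3 libraries, so these shares are not particular to the shared ones. At region centres, promoter regions called in the myogenic and LSD1(OE) but not the adipogenic library held the GC box in 39.9% and GCCAAT in 12.5%. Shared promoters held them in 36.9% and 12.5%. In 300 bp at the strongest summit the shares were 37.7% and 12.1%, against 41.5% and 14.3% of shared promoters. The order of these groups thus depended on the window. All of these are matches of letters and not binding sites.

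The centres of shared promoters and of distal regions bound in the same 3 libraries held different motifs. In 300 bp at the centre the AP-1 motif was present in 5.19% of shared promoters and 23.7% of distal regions. The E-box CAGCTG of MyoD was present in 16.9% and 30.5%, the TEAD motif GGAATG in 10.9% and 19.0%, and the RUNX motif TGTGGTT in 3.32% and 11.0%. The reverse was seen for the GC box, at 36.9% and 5.39%, and the ETS motif, at 9.98% and 2.07%. Centres of the 8023 promoter regions not called in all 3 libraries resembled the shared ones more than the distal ones. They held the AP-1 motif in 7.75%, CAGCTG in 18.3%, GGAATG in 12.7% and TGTGGTT in 4.84%. The GC box was present there in 28.6% and the ETS motif in 12.4%. These contrasts with distal regions are thus not particular to the shared promoters. The share of the AP-1 motif is over all shared promoters. How often its letters occur at the promoters of the AP-1 genes themselves was not counted.

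**Figure D5:**
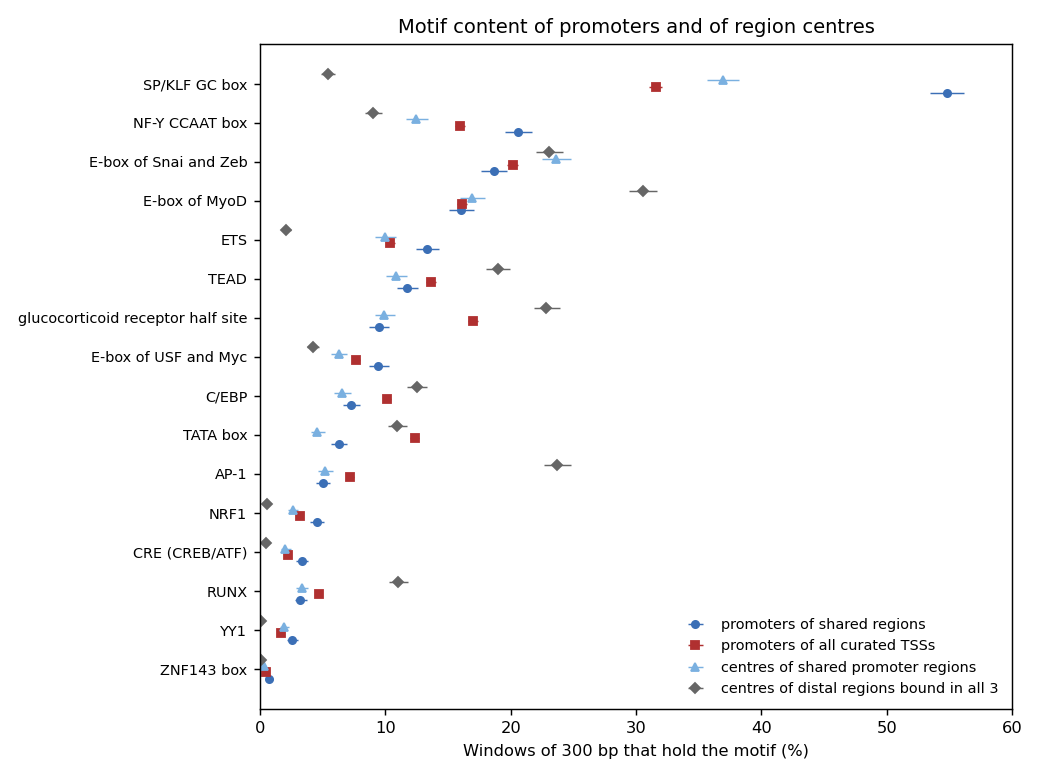
Share of 300 bp windows that hold a motif (horizontal axis, %), with 95% Wilson intervals, at promoters of shared regions, promoters of all curated TSSs, centres of shared promoter regions and centres of distal regions bound in all 3 libraries. The GC box is at 54.8% of shared promoters and 31.6% of all TSSs, and the AP-1 motif is at 5.19% of shared promoter centres and 23.7% of distal centres.

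Regions on either side of the window's edge were close in distance, while their tags differed. The shared regions nearest inside the window were at Zfp316 (centre at -1998 bp, upstream of the TSS) and Galnt9 (1994 bp downstream), with 31, 59 and 77 and with 30, 75 and 82 tags in the myogenic, adipogenic and LSD1(OE) library. The nearest outside were at Abcc4 (2003 bp), with 56, 76 and 51 tags, and N4bp1 (2005 bp), with 284, 135 and 67. The weakest shared promoters by their lowest score were those of Ppa1, Cdk4 and 1700013G24Rik, at 50.02 to 50.04 in 1 library each, where 50 is the calling threshold. Of all shared promoters, 66.7% had a score of 100 or more in every library.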

How the data were processed

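Lsd1 ChIP and input DNA of C2C12 cells were sequenced in 50 bp reads. Per the deposited file headers and the submitters' processing notes, the authors mapped reads to mm10 with Bowtie2 and called peaks with MACS (1.4.2 in the headers, 1.41 in the notes) separately in the 3 ChIP libraries, with the input of the same condition as control and a p cutoff of 1e-05. The deposited peak tables give tag counts per peak, a score of −10 log10 p (50 at the threshold, many values near 3100 at the top), a fold ratio over input and an FDR in percent. Fold ratios were not compared between libraries. The peak coordinates in the BED files were not used, since they repeat the tables. Adipogenic induction is 3 days in one label text and 2 days in the study's methods, while the ChIP samples are labelled day 1.

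From these files, regions were merged and assigned to 31647 curated RefSeq TSSs of GRCm38.p6 with scripts (SciPy 1.17.1, pandas 2.3.3, NumPy 2.4.6, run under Python 3.11.15), and plots were drawn in Matplotlib 3.10.9. Density is tags per kb of called peak per 1000000 filtered ChIP tags (46155625 to 63915769 per library). It is bounded below by the calling threshold. With 1 library per condition no test was run. Intervals are 95% Wilson (shares), exact Poisson (tags) and exact conditional binomial (ratios). Sequence tags are not independent molecules, and regions are not replicates. The steps were tested on simulated data. The IRG names matched 348 genes, after 9 names were corrected.

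The regions and gene lists were chosen with earlier results of these data known. Named genes were the 12 regions of highest density in all 3 libraries, the 5 highest and 5 lowest ratios of each comparison among regions with at least 100 tags, up to 5 genes per list by the lowest of the 3 scores, the 5 longest regions, the regions nearest to the thresholds and the genes whose Lsd1 occupancy the study names. Alternatives changed the FDR, score, window, overlap, TSS set, number of peaks and scaling. Assigning every gene with a TSS inside a region, and leaving out receptor genes on chromosomes, were chosen after seeing the data. Some genes that the rule for named genes selects are not reported here.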

Additional observations from a re-analysis of the deposited data

How the results depend on the processing

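The number of shared promoter regions fell from 5339 to 3132, and of their genes from 5147 to 3069, when only peaks with an FDR of at most 0.1% were used, and 3055 of those genes were shared with the full list. A score of at least 100 left 3567 regions, equal numbers of the strongest peaks 4531, a window of 1000 bp 4954 and of 5000 bp 6064, and predicted TSSs raised the number to 5995. The median log2 ratio of adipogenic to myogenic density was -0.45. It was -0.73 without division by length, -0.43 at the 2167 regions with at least 100 tags in every library and -0.46 at the 4306 with 1 peak in each, and it reversed to 0.71 when scaled to tags in peaks. For LSD1(OE) over adipogenic it was 0.15, then 0.28 without length and 0.18 with at least 100 tags, and it reversed to -0.57 when scaled to tags in peaks. The scaling itself accounts for these reversals, because the libraries differ in the share of tags in peaks. With equal numbers of the strongest peaks the counts of all 34 lists and IRG groups stayed within 1.5 times. Of the lists, that of histone genes rose from 22 to 37 with every TSS within 2000 bp and to 55 with every TSS inside a region. No paired analysis was possible because each condition had 1 library and the labels give no replicate numbers.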

Other observations

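Non-coding RNA genes were also among the owners of shared promoter regions. Of 18 snRNA genes 11 owned one (61.1%), among them Rnu11, Rnu12 and Rnu7, of which Rnu11 and Rnu12 belong to the minor spliceosome and Rnu7 to histone mRNA processing. Some of these genes are present in near-identical copies, so reads may not be placed uniquely. Of 1228 miRNA genes 42 owned one (3.42%) and of 3318 lncRNA genes 279 (8.41%), against 4791 of 21000 protein-coding genes (22.8%). The start of Ppargc1b, a coactivator of mitochondrial genes, lay inside the shared region assigned to Mir378a. These are counts of nearest starts and carry no test.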
